A study of Mus musculus with 2 samples.

Results

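B cells were the 240 cells of the control library and the 712 cells of the Dnmt1iECKO library that carried at least 3 of the 6 B lineage transcripts *Cd79a*, *Cd79b*, *Ms4a1*, *Pax5*, *Bank1* and *Ebf1*, together with at least 1 UMI of the pan-leukocyte gene *Ptprc* (CD45) and no UMI of *Cd3e*, *Cd3g* or *C1qa*, which mark T cells and macrophages. Members were thus selected on measured UMIs of these genes, whose levels in the members are a description. They made up 952 of the 16123 cells that had at least 500 detected genes and at most 10% mitochondrial UMIs. A UMI is a molecular barcode, so a UMI count is a count of captured transcripts. The study compared the endothelium of YUMMER1.7 melanomas between control mice and mice without endothelial *Dnmt1*, the maintenance DNA methyltransferase, by 10x Genomics 3' single-cell RNA-seq of live CD31+CD45- cells. The labels give the control mice as C57BL/6 and the other mice as Cdh5CreERT2;Dnmt1fl/fl;ZsGreenlsl/lsl, all female and 8 to 10 weeks old. The study's methods describe controls that carry the Cre driver and the reporter without the floxed alleles, and tamoxifen given to the Dnmt1iECKO mice before tumor challenge, so the deletion was driven by the endothelial *Cdh5* promoter and was not aimed at B cells. The labels place the tumors under the skin, whereas the methods describe lung tumors after tail vein injection. Tumors of several mice were pooled into each library, so there is 1 library per condition and no replicate. Library and condition cannot be told apart, and no difference between them was tested.

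B cells are the antibody-forming lymphocytes. Their surface immunoglobulin signals through CD79A and CD79B, PAX5 and EBF1 hold their identity, and they take up antigen and present it to T cells on MHC class II. In lung and in tumors they include resting follicular cells that carry IgM and IgD, activated and memory cells, and plasma cells, which secrete antibody of the first or of a switched isotype.

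The sort gate excludes CD45+ cells, yet *Ptprc* was detected in 18.3% of the filtered control cells and in 58.4% of the filtered Dnmt1iECKO cells. How the gate passed these cells was not tested, and the share of B cells in a library is therefore not the share in the tumors. The summed depth of the B cells was 3814257 UMIs (control) and 8391255 UMIs (Dnmt1iECKO), at a median of 7954 and 7885.5 UMIs and of 2833 and 2744 genes per cell. A total of 29 cell barcodes occurred in both libraries, and 0 barcodes of B cells did. All intervals given here are exact 95% intervals and cover counting error only, not the spread between mice or libraries.

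The selected cells expressed B cell genes that the selection had not used. To compare them with endothelial cells at equal depth, each cell was thinned at random to 2000 UMIs, and the comparison cells were 5348 control and 2224 Dnmt1iECKO cells with *Cdh5* and without *Ptprc* UMIs. *Cd37*, a B cell tetraspanin, was then detected in 63.9% of control and 70.8% of Dnmt1iECKO B cells, against 0.177% and 0.811% of endothelial cells. The surface protein gene *Ly6d* was detected in 69.3% and 69.7% of B cells, against 0.0589% and 0.143%. *Ighm*, the IgM heavy chain, was detected in 78.6% and 83.6% of B cells, against 0.118% and 0.43%, and *Cd22*, an inhibitory coreceptor, in 28.6% and 39.2%, against 0.0196% and 0.0477%. These genes were near 0 in endothelial cells of both libraries, so their detection in B cells lay far above the level left by free RNA. *Igkc*, the kappa light chain, was different: at full depth it was detected in 95.4% and 97.5% of B cells but also in 24.9% and 55.6% of endothelial cells, and more endothelial cells carried it in the Dnmt1iECKO library. Most members had all 6 rule markers, at 74.2% of control and 79.6% of Dnmt1iECKO B cells.

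**Figure D1:**
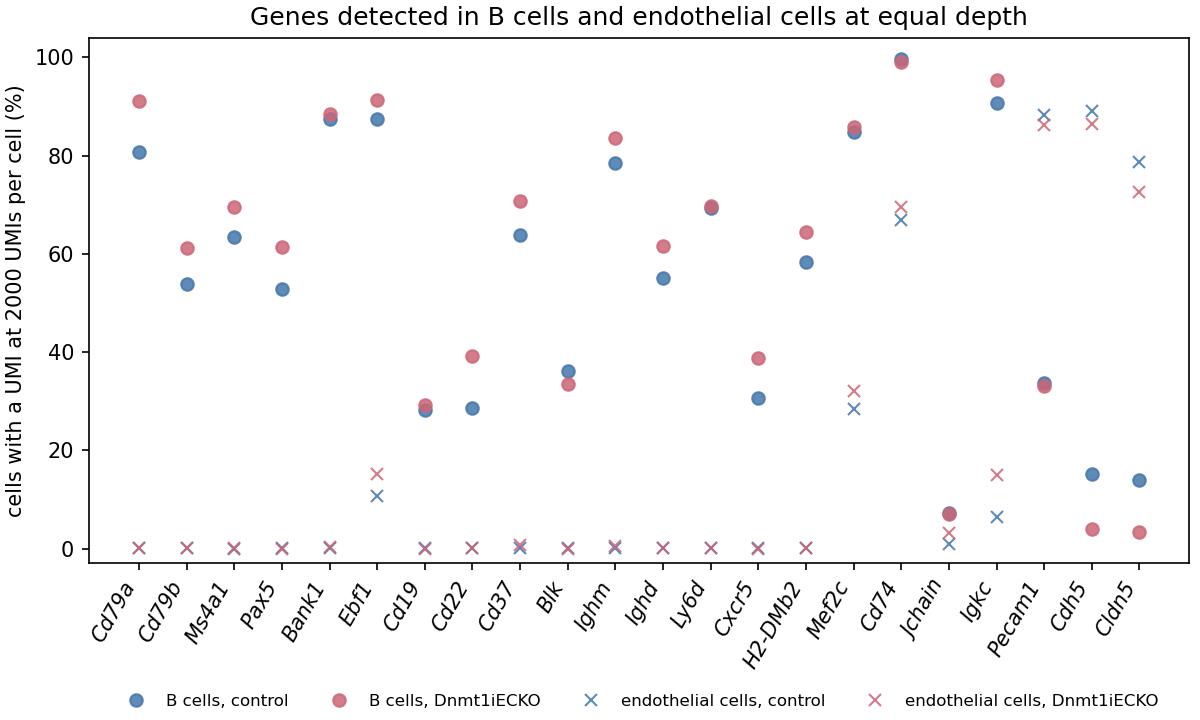
Share of cells with at least 1 UMI of each gene (vertical axis, percent) after thinning to 2000 UMIs per cell, for B cells (circles) and endothelial cells (crosses) of the control (blue) and Dnmt1iECKO (red) libraries. B cell genes such as *Cd37* (63.9% and 70.8% of B cells) sit near 0 in endothelial cells, while *Igkc* (6.32% and 15%) and the rule marker *Ebf1* (10.7% and 15.1%) do not, and *Cdh5* and *Cldn5* are found in more control than Dnmt1iECKO B cells. The first 6 genes were part of the selection.

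At the edge of the rule the cells were fewer and deeper. Just inside it, 9 control and 30 Dnmt1iECKO cells had 3 markers, with medians of 37481 and 33295.5 UMIs, and *Jchain*, the joining chain of secreted IgM and IgA, was detected in 66.7% and 73.3% of them. Just outside it, 13 and 33 cells with 2 markers had medians of 40774 and 21258 UMIs, and *Jchain* was detected in 53.8% and 36.4%. The endothelial gene *Cdh5* was detected in 55.6% and 13.3% of the cells inside and in 46.2% and 39.4% of those outside. Cells with *Jchain* thus lay on both sides of the threshold, and whether they were plasma cells or mixtures was not tested. The counts of plasma cells below hold only cells inside it.

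B cells were a larger share of the Dnmt1iECKO library but not of its leukocytes. They were 2.99% (95% interval 2.63 to 3.39) of filtered control cells and 8.79% (8.18 to 9.43) of filtered Dnmt1iECKO cells, a log2 ratio of 1.55 (1.34 to 1.77). Of the cells with *Ptprc*, they were 16.4% (14.5 to 18.4) in the control library and 15.1% (14.0 to 16.1) in the Dnmt1iECKO library, a log2 ratio of -0.12 (-0.33 to 0.10). The difference in the share of all cells was therefore shared with the leukocytes as a whole, whose log2 ratio was 1.68 (1.59 to 1.76).

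**Figure D2:**
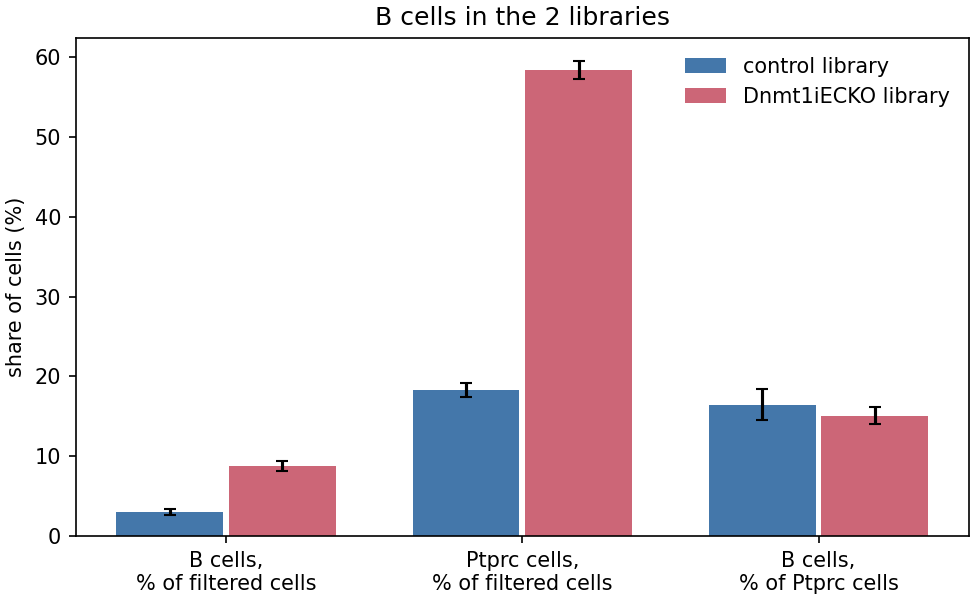
Bars show B cells as a percent of all filtered cells, cells with *Ptprc* as a percent of all filtered cells, and B cells as a percent of cells with *Ptprc*, in the control (blue) and Dnmt1iECKO (red) libraries, with exact 95% intervals. The first 2 pairs differ (2.99% against 8.79%, and 18.3% against 58.4%), and the third overlaps (16.4% against 15.1%).

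The B cells of the control library carried more endothelial RNA. At least 1 UMI of the endothelial genes *Cdh5* or *Cldn5* was found in 62 of 240 control B cells, 25.8% (20.4 to 31.9), and in 56 of 712 Dnmt1iECKO B cells, 7.87% (6.00 to 10.1). These cells were deep, with medians of 27032.5 and 13501.5 UMIs, and held 49.7% of all B cell UMIs in the control library but 13.5% in the Dnmt1iECKO library. The summed level of 10 endothelial markers in B cells was 2838 CPM (counts per 1000000 UMIs) for the control and 776 CPM for the Dnmt1iECKO library. It was 151 and 177 CPM in the 178 and 656 B cells with no UMI of *Cdh5* or *Cldn5*. These 2 genes are among the 10 markers, so part of that drop was fixed by the definition of the set. Only *Pecam1* of the 10 had at least 100 UMIs in the set. Of the B cells with *Cdh5* or *Cldn5* UMIs, 30.6% and 30.4% were among the cells with the highest doublet scores. The share was 9.58% and 5.06% of all B cells, which include them. Over the whole libraries, 257 of 8021 control and 263 of 8102 Dnmt1iECKO filtered cells were so marked, numbers fixed by the marking rule. At least 3 markers of a cell type other than B cells were most often endothelial, in 17.9% and 4.21% of B cells, and NK cell markers reached that number in 0 cells. Next were fibroblast and mural markers in the control (5.42%) and macrophage and monocyte markers in the Dnmt1iECKO library (2.53%). The selection on *Cd3e*, *Cd3g* and *C1qa* limited the T cell and macrophage counts. *Pecam1*, *Lyz2* and *Itgb3*, also seen across the B cells, were left out of these counts. Among other cells with *Ptprc*, 30.3% and 13.2% carried *Cdh5* or *Cldn5*, so the excess in the control library was not seen in B cells alone. *Pecam1*, which encodes the CD31 used in the sort, was detected in 68.3% and 70.2% of all B cells and in 60.7% and 68.6% of those without *Cdh5* or *Cldn5*. Below, gene lists are described in all B cells and in those 178 and 656 cells. Shares of groups, isotypes and light chains are of all B cells unless stated otherwise.

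The B cells fell into 10 groups when clustered without their immunoglobulin genes. The genes named for a group led it in the clustering itself and are a description. Groups 1 and 3 were called follicular-like, from follicular markers such as *Ighd*, *Fcer2a* (CD23) and *Ccr7*, and together they held 118 control cells, 49.2% (42.7 to 55.7), and 309 Dnmt1iECKO cells, 43.4% (39.7 to 47.1). *Ighd* was detected in 98.0% of group 1 and 94.9% of group 3. Of the B cells without *Cdh5* or *Cldn5* UMIs, the follicular-like groups held 59.0% (51.4 to 66.3) in the control and 45.6% (41.7 to 49.5) in the Dnmt1iECKO library. The follicular-like share depended on the clustering: over all B cells its log2 ratio was -0.18 (-0.49 to 0.14) here and 0.06 (-0.41 to 0.55) at a resolution of 1. The clusters named follicular there were led by *Ifi206*, *Cr2* and *Pkib* (10 control and 66 Dnmt1iECKO cells) and by *Ighd*, *Xylt1* and *Arhgef18* (40 and 89 cells). Other clusters, such as those with *Ighd* in 92.1%, 96.7% and 97.3% of their cells, were given no name there. The ratios therefore need not cover the same cells.

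The other groups stayed without a B cell name under the marker rule. Group 0 was led by *Pkib*, and its 10 leading genes included the complement receptor gene *Cr2* and the chemokine receptor gene *Ccr6*. The interferon response genes *Ifi214*, *Ifi206* and *Ifi213* and the interferon gamma receptor gene *Ifngr2* were also among them. Group 0 held 10.0% (6.51 to 14.5) of control and 19.2% (16.4 to 22.3) of Dnmt1iECKO B cells, a log2 ratio of 0.94 (0.31 to 1.63). Group 5, led by *Tox*, *Mreg* and *Myc* and with the memory-associated genes *Nt5e* in 35.6% and *Cd80* in 50% of its cells, held 7.92% (4.83 to 12.1) and 11.9% (9.65 to 14.5), and 44.2% of its cells carried a switched isotype. Group 4, led by *Sox5*, *S100a6* and *Fcrl5* and with the interleukin 5 receptor gene *Il5ra* in 72.5% of its cells, held 3.33% and 4.49%, and none of its 40 cells was switched. Group 9, led by *Agbl1*, *Cecr2* and *Klhl14* and with the immature B cell gene *Vpreb3* in 75.4% of its cells, held 4.58% and 6.46%. The intervals of groups 4, 5 and 9 overlapped between libraries.

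Group 7 was led by *Ighg2c*, *Jchain* and *Igha* and held 7.5% (4.51 to 11.6) and 7.16% (5.38 to 9.31) of the B cells. Its cells were deep, at a median of 35685 UMIs, and the plasma cell genes *Xbp1*, *Prdm1* and *Sdc1* were detected in 94.2%, 73.9% and 66.7% of them. The proliferation gene *Mki67* was detected in 66.7%, and 69.6% of the cells were switched. The myeloid genes *Lyz2* and *Ly6c2* were also among its 10 leading genes. The marker rule gives no B cell name to a group led by genes of another cell type, and group 7 was given none. At a finer resolution, 47 cells, 5.00% of control and 4.92% of Dnmt1iECKO B cells, met the rule for plasma cells. Group 6 was led by endothelial genes, with *Cdh5* in 87.8% of its cells, and held 15.8% (11.5 to 21.1) of control and 5.06% (3.57 to 6.93) of Dnmt1iECKO B cells. Group 8 was led by the neutrophil genes *S100a9* and *S100a8* and held 9 cells, and group 2 held 11 cells with a median of 2136 UMIs.

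**Figure D3:**
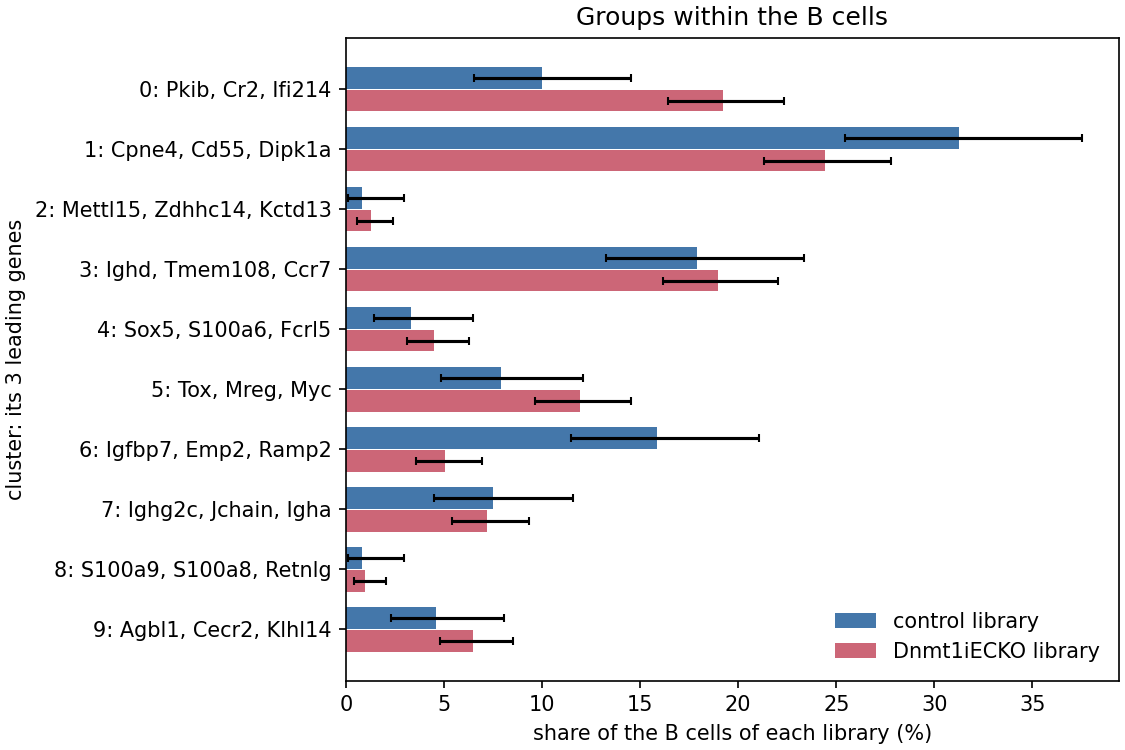
Share of each library's B cells in each of the 10 groups (horizontal axis, percent) with exact 95% intervals, in the control (blue, 240 cells) and Dnmt1iECKO (red, 712 cells) libraries. Group 0 is larger in the Dnmt1iECKO library (10.0% against 19.2%), the endothelial-led group 6 is larger in the control library (15.8% against 5.06%), and the other intervals overlap.

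A minority of the B cells had switched isotype. A cell was called switched when its UMIs of *Ighg* and *Igha* genes exceeded those of *Ighm* and *Ighd*, which held for 22 control cells, 9.17% (5.83 to 13.5), and 80 Dnmt1iECKO cells, 11.2% (9.01 to 13.8). *Igha*, the IgA heavy chain, led in 15 control and 40 Dnmt1iECKO cells. *Ighg2b* led in 5 and 14 cells and *Ighg2c* in 2 and 11. *Ighg1* led in 13 Dnmt1iECKO cells, 1.83% (0.976 to 3.10), and in 0 of 240 control cells, which allows a share of up to 1.25% by a floor of 3 counts and 1.53% by the exact interval. The IgG constant genes are similar in sequence, so reads may be split between them. After thinning to 2000 UMIs, 9.24% and 10.5% of cells were switched and *Ighg1* led in 1 control and 11 Dnmt1iECKO cells. *Igha* was detected in 18.3% and 27.9% of B cells but also in 10.8% and 25.9% of endothelial cells at full depth. With each cell thinned to 2000 UMIs, it was detected in 8.40% and 12.04% of B cells, against 2.20% and 6.40% of endothelial cells. Detection of *Igha* alone therefore lay close to the endothelial level in the Dnmt1iECKO library at full depth but above it at equal depth.

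Few cells made most of the immunoglobulin RNA. Over 1000 immunoglobulin UMIs were found in 13 control cells, 5.42% (2.92 to 9.08), and 35 Dnmt1iECKO cells, 4.92% (3.45 to 6.77), and these cells held 91.8% and 92.5% of all immunoglobulin UMIs of the B cells. The remaining cells had little of it, since the median over all B cells was 74 UMIs in the control and 67 in the Dnmt1iECKO library. CPM of *Jchain*, *Igkc* and the switched heavy chains therefore followed a few cells. At least 90% of a cell's light chain UMIs were *Igkc* in 51.7% and 44.1% of B cells and *Iglc* in 4.17% and 3.23%, while 42.9% and 52.0% were mixed. *Igkc* was detected at full depth in 95.4% and 97.5% of B cells, against 24.9% and 55.6% of endothelial cells. At full depth *Iglc2* was detected in 80.8% and 77.4% of B cells, against 0.262% and 0.585% of endothelial cells. *Iglc3* was detected in 69.2% and 74.7%, against 0.0748% and 0.225%, and *Iglc1* in 32.9% and 40.7%, against 0.112% and 4.09%. The source of the mixed calls, and how far free *Igkc* RNA added to them, was not tested.

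Fewer genes were lower in the Dnmt1iECKO library once B cells with *Cdh5* or *Cldn5* UMIs were left out, while the number of higher genes was the same. Of 9194 genes with at least 100 UMIs in all B cells, 129 (1.40%) were at least 2-fold higher and 919 (10.0%) at least 2-fold lower in the Dnmt1iECKO library. In the B cells without *Cdh5* or *Cldn5* UMIs, 129 (1.66%) of 7765 genes were at least 2-fold higher and 101 (1.30%) lower. In the 189 and 641 B cells with fewer than 3 markers of any other cell type, 65 (0.885%) of 7341 genes were higher and 94 (1.28%) lower. In the follicular-like groups of the cells without *Cdh5* or *Cldn5* UMIs, with 105 control and 299 Dnmt1iECKO cells, 11 (0.252%) of 4359 genes were higher and 14 (0.321%) lower. The median log2 ratio of all genes with the minimum was -0.10, -0.09, -0.07 and -0.03 in these 4 sets, and a gene list is read against it.

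B cell identity genes outside the rule were higher in the Dnmt1iECKO library over all B cells, with 28 of 30 genes higher and a median log2 ratio of 0.47, where 39.3% of all genes were higher. Without *Cdh5* or *Cldn5* UMIs, 17 of 30 were higher and the median was 0.01, where 36.2% of all genes were higher. B cell receptor signaling genes gave 18 of 20 and a median of 0.50 in all B cells, and 11 of 20 and 0.03 in the smaller set. In that set the level of *Blnk*, the adaptor of the B cell receptor, was 428 CPM (control) and 440 CPM (Dnmt1iECKO), and that of *Syk*, its kinase, was 489 and 473 CPM. *Pik3ap1*, an adaptor for PI3K, was at 375 and 442 CPM, a log2 ratio of 0.24 (0.12 to 0.35).

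Among the antigen presentation genes of MHC class II, 10 of 11 genes were higher over all B cells, where 39.3% of all genes were, with a median log2 ratio of 0.40. Without *Cdh5* or *Cldn5* UMIs 5 of 11 were higher, near the 36.2% of all genes, with a median of -0.05. *H2-Aa*, a class II chain, was at 3846 CPM and 3722 CPM in that set. *Cd74*, the invariant chain, was at 9856 CPM and 9973 CPM, and *Ciita*, the transactivator of class II genes, at 80.7 CPM and 113 CPM, a log2 ratio of 0.49 (0.24 to 0.74). For MHC class I, 5 of 11 genes were higher over all B cells and 9 of 11 in the smaller set, against the same 39.3% and 36.2%, with medians of -0.02 and 0.10. Costimulation genes had medians of 0.40 and 0.10, and *Cd86*, a ligand of CD28, was at 617 CPM and 660 CPM in the smaller set.

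Receptors that place B cells in tissue had a median log2 ratio of 0.29 over all B cells and -0.02 without *Cdh5* or *Cldn5* UMIs. In the smaller set *Cxcr4*, the receptor of CXCL12, was at 134 CPM (control) and 172 CPM (Dnmt1iECKO), a log2 ratio of 0.37 (0.17 to 0.56). *Cxcr5*, which guides B cells to follicles, was at 194 and 226 CPM, and *Ccr7*, which guides them to T cell zones, at 504 and 497 CPM. *Itgb1*, an integrin chain that endothelial cells also express, was at 332 and 151 CPM over all B cells but at 92.2 and 96.7 CPM in the smaller set. Survival and cytokine receptors had medians of 0.24 and -0.01.

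The medians of interferon response genes changed direction with the set of cells. Of 32 measured genes of the interferon gamma response, 12 were higher in the Dnmt1iECKO library over all B cells, where 39.3% of all genes were, with a median log2 ratio of -0.42, and 6 of the 32 were at least 2-fold lower, where 10.0% of all genes were. Of 30 genes with the minimum in the cells without *Cdh5* or *Cldn5* UMIs, 23 were higher, where 36.2% of all genes were, with a median of 0.34, and 3 were at least 2-fold higher, where 1.66% of all genes were. *Irgm2*, an immunity-related GTPase, was detected in 59.8% of control and 60.4% of Dnmt1iECKO endothelial cells, against 17.1% and 14.0% of all B cells; the part of endothelial RNA in the turn of direction was not tested. In the B cells without *Cdh5* or *Cldn5* UMIs, *Irgm2* had 6 UMIs in the control (3.12 CPM) and 107 in the Dnmt1iECKO library (14.7 CPM), a log2 ratio of 2.24 (1.07 to 3.72). *Gbp6*, a guanylate-binding protein, was at 6.77 and 18.5 CPM, a log2 ratio of 1.45 (0.62 to 2.39), and *Nlrc5*, the transactivator of class I genes, at 51.0 and 86.6 CPM, a log2 ratio of 0.76 (0.45 to 1.08). Other leukocytes without those UMIs also had more *Irgm2* in the Dnmt1iECKO library, at 18.5 and 32.9 CPM, a log2 ratio of 0.83 (0.65 to 1.02). Their log2 ratios of *Gbp6* and *Nlrc5* were 0.16 (0.03 to 0.30) and 0.05 (-0.02 to 0.13). In the follicular-like groups 8 of 12 genes with the minimum were higher, where 45.9% of all genes were, with a median of 0.12. The type I interferon list had medians of -0.41 over all B cells and 0.29 without *Cdh5* or *Cldn5* UMIs, while in the follicular-like groups its median was -0.11, with 3 of 12 genes higher.

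Some promoters of the interferon gamma list hold a sequence bound by interferon regulatory factors. The list was chosen for a response to interferon, whatever the cells, so these matches carry no information on the B cells. Interferon regulatory factors bind repeats of GAAA, so a pair of GAAA repeats with 2 bases between them was searched on both strands, with overlaps counted, in the RefSeq promoters of build GRCm38.p6, from 250 bases before to 50 after each gene's start. Of 25 list genes with a promoter in the table, 12 (48.0%) held it, against 3.99% of 27025 genes with a promoter, and a match is a description of the letters. The 3 list genes with a match and the highest log2 ratio in the B cells without *Cdh5* or *Cldn5* UMIs are shown, with the matched repeats and the bases between them in capitals.
Irgm2, chr11:58214727-58215026, plus strand: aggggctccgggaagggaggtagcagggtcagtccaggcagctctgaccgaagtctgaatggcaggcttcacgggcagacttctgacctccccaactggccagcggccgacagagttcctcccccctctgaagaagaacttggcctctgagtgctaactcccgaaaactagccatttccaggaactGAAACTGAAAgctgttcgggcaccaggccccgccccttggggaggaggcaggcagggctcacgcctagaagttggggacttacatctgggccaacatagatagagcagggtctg
Igtp, chr11:58199306-58199605, plus strand: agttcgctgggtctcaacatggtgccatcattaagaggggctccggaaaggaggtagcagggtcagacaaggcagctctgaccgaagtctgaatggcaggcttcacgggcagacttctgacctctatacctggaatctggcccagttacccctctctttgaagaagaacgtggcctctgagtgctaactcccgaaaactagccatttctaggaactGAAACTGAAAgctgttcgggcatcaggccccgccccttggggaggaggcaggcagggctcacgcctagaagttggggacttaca
Socs1, chr16:10785487-10785786, minus strand: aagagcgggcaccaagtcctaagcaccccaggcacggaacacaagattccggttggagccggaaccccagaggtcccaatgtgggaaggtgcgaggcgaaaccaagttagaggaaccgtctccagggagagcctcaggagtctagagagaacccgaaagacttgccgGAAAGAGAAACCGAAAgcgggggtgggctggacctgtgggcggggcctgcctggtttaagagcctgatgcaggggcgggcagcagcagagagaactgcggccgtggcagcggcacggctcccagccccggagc
*Irgm2* and *Igtp* are neighbouring GTPase genes whose models overlap on the same strand, so reads can be shared between them, and the matched motif has the same letters in both. *Socs1*, a feedback inhibitor of cytokine signaling, held 2 overlapping matches. The log2 ratios of *Igtp* and *Socs1* in these cells were 0.68 (0.14 to 1.27) and 0.68 (0.16 to 1.24).

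Of the heat shock and dissociation genes, 0 of 10 were higher in the Dnmt1iECKO library over all B cells, where 39.3% of all genes were, with a median log2 ratio of -0.70. Without *Cdh5* or *Cldn5* UMIs 2 of 8 were higher, near the 36.2% of all genes, with a median of -0.45. The chaperone gene *Hsph1* was at 106 and 39.6 CPM in the smaller set, a log2 ratio of -1.43 (-1.69 to -1.16). It was also lower in endothelial cells, at 79.3 and 51.5 CPM, and in other leukocytes, at 65.0 and 33.3 CPM. Of the cell cycle genes, 4 of 14 were higher over all B cells and 2 of 14 without those UMIs, where 39.3% and 36.2% of all genes were, with medians of -0.66 and -0.74, but 1 control cell held 58.6% of the control UMIs of *Top2a* and 1 held 44.4% of those of *Mki67* in the smaller set. *Mki67* was detected in 7.30% of control and 9.60% of Dnmt1iECKO cells there, and in the follicular-like groups the cell cycle median was 0.20, over the 3 genes with the minimum. Activation and immediate early genes had medians of -0.32 and 0.03. *Egr1*, an early gene that endothelial cells express, was at 814 and 387 CPM over all B cells and at 144 and 206 CPM in the smaller set.

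**Figure D4:**
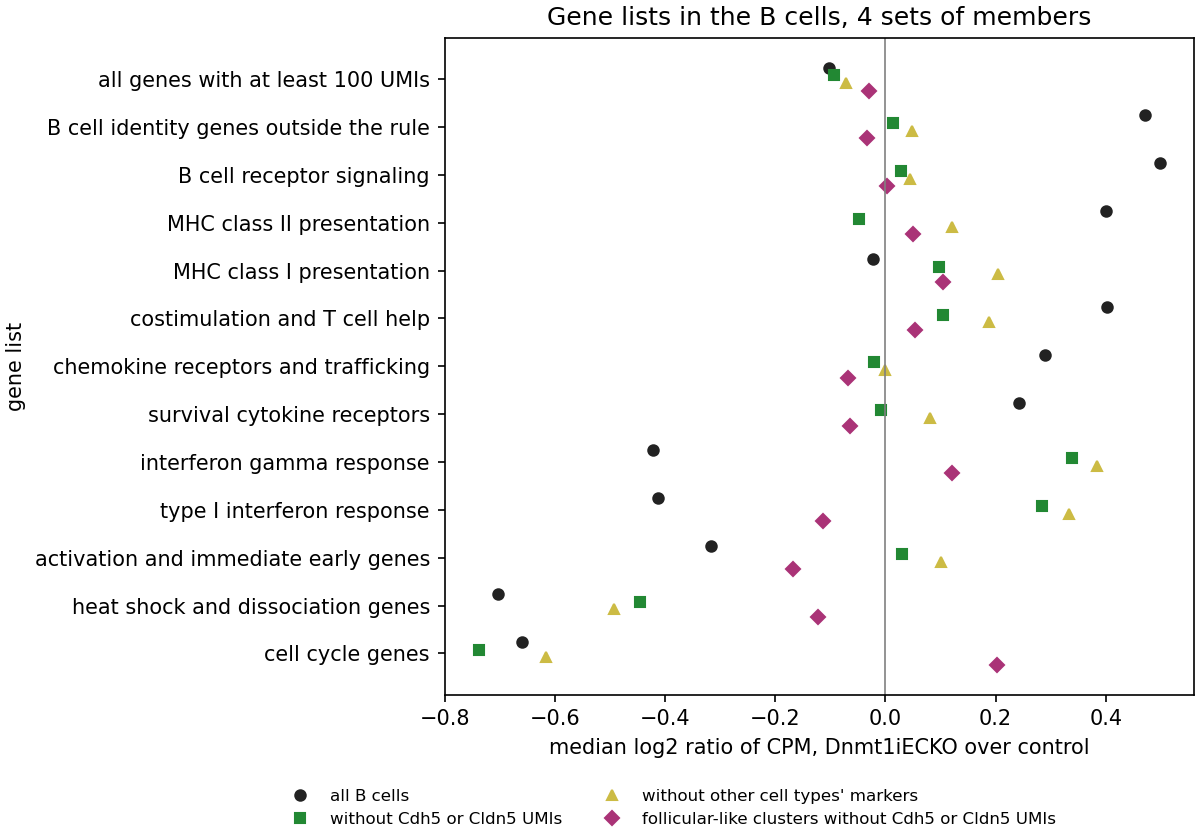
Median log2 ratio of CPM (horizontal axis, Dnmt1iECKO over control) of each gene list in all B cells (black circles), in B cells without *Cdh5* or *Cldn5* UMIs (green squares), in B cells without at least 3 markers of another cell type (yellow triangles), and in follicular-like groups without *Cdh5* or *Cldn5* UMIs (purple diamonds). The identity list moves from 0.47 in all B cells to 0.01 without *Cdh5* or *Cldn5* UMIs, and the interferon gamma list from -0.42 to 0.34.

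The genes with the most extreme ratios over all B cells included many of other cell types. The 10 lowest were *Cyp1a1*, *Sftpc*, *Sftpa1*, *Mpped2*, *Apln*, *Sfn*, *Ednrb*, *Lrg1*, *Scn3b* and *Arhgap42*, and the 10 highest were *Ighg1*, *Gdpd3*, *Jhy*, *Cpne4*, *Scgb1a1*, *Ly6c2*, *S100a9*, *Rap1gap2*, *Tbx21* and *Il9r*. The lowest included *Sftpc* and *Sftpa1*, surfactant genes of alveolar cells, and *Apln* and *Ednrb*, which endothelial cells express. *Sftpc* was at 703 CPM (control) and 11 CPM (Dnmt1iECKO), and 1 control cell held 95.2% of the control UMIs. It was detected in 35.4% and 11% of B cells, and it is a lung transcript in libraries whose labels place the tumor under the skin. Among the highest, *S100a9* is a neutrophil gene, and 92.9% of its control UMIs were in 1 cell.

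Without *Cdh5* or *Cldn5* UMIs, the named genes included some that differed in many cells. *Gdpd3*, a lysophospholipase gene at chr7:126766334-126775649 on the plus strand of mm10, had 2 UMIs in 178 control cells (1.04 CPM) and 913 in 656 Dnmt1iECKO cells (126 CPM), a log2 ratio of 6.92 (5.06 to 9.96). It was detected in 1.12% of the control cells and 42.8% of the Dnmt1iECKO cells. The same gene differed in endothelial cells, at 5.85 and 136 CPM, and in the other leukocytes, at 5.35 and 148 CPM, so the difference was not seen in B cells alone. Its model overlaps *Gm9967* on the other strand. *Rpl29*, a ribosomal protein gene whose processed copies in the genome make its count uncertain, was at 1343.5 and 202 CPM in B cells, 680 and 291 CPM in endothelial cells and 958 and 223 CPM in other leukocytes.

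*Arhgap31*, a GTPase-activating protein of CDC42 and RAC1 at chr16:38598340-38713274 on the minus strand, was at 77.6 CPM in control and 5.51 CPM in Dnmt1iECKO B cells, a log2 ratio of -3.82 (-4.36 to -3.30). It was detected in 23.6% of the control and 2.74% of the Dnmt1iECKO cells. In other leukocytes it was at 247 and 69.5 CPM, and in endothelial cells at 499 and 527 CPM, where the log2 ratio was 0.08 (0.05 to 0.11). *Cpne4*, a copine, was at 11.5 and 39.0 CPM in B cells and was detected in 7.87% and 24.7% of them. *Jhy* was at 6.25 and 26.0 CPM and was detected in 5.62% and 20.6%. *Jhy* was near its lower limit elsewhere, at 0.837 and 1.08 CPM in other leukocytes and at 0.221 and 0.293 CPM in endothelial cells. *Cpne4* was at 1.35 and 6.46 CPM in other leukocytes and, on 24 and 3 UMIs, at 0.332 and 0.088 CPM in endothelial cells, a log2 ratio of -1.92 (-4.29 to -0.20). In the follicular-like groups of these cells, *Ahnak*, which encodes a large scaffold protein, was at 149 and 34.7 CPM, a log2 ratio of -2.10 (-2.56 to -1.65), against 712 and 598 CPM in other leukocytes. *Ighg1* and *Ighg2b* went in opposite directions, at 12 and 1623 CPM and at 3268 and 472 CPM, and 1 cell held 35.4% of the Dnmt1iECKO UMIs of *Ighg1* and 1 held 52.8% of the control UMIs of *Ighg2b*.

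**Figure D5:**
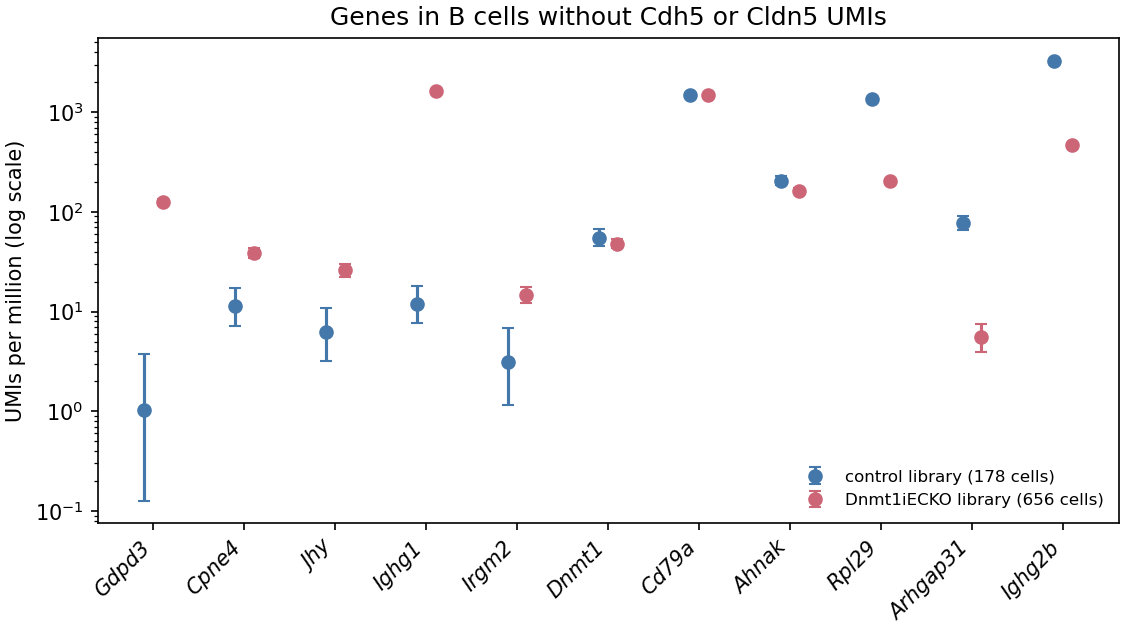
CPM (vertical axis, log scale) of selected genes in the B cells without *Cdh5* or *Cldn5* UMIs, in the control (blue, 178 cells) and Dnmt1iECKO (red, 656 cells) libraries, with exact Poisson 95% intervals. *Gdpd3* (1.04 and 126 CPM) and *Arhgap31* (77.6 and 5.51 CPM) lie far apart, while those of *Dnmt1* (55.2 and 48.1 CPM) and *Cd79a* (1487 and 1478 CPM) overlap.

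The intervals of *Dnmt1* in the B cells of both libraries overlapped. Over all B cells it was 48.0 CPM (control) and 46.7 CPM (Dnmt1iECKO), and without *Cdh5* or *Cldn5* UMIs it was 55.2 and 48.1 CPM, a log2 ratio of -0.20 (-0.52 to 0.13). In endothelial cells it was 51.5 and 35.1 CPM, a log2 ratio of -0.55 (-0.65 to -0.46). The labels do not name the deleted exons, and 3' tags need not fall in them, so these values do not check the deletion.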

How the data were processed

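Each of the 2 libraries was a 10x Genomics GEM-X 3' v4 library of sorted cells. The deposited matrices hold UMI counts per gene and cell, made by the authors with Cell Ranger 9.0.1 per the file headers and with mm10 per the submitters' notes, and were not normalized. Groups came from the labels. Cells with at least 500 detected genes and at most 10% mitochondrial UMIs were kept, from 9301 control and 9522 Dnmt1iECKO deposited cells with 123830489 and 141433493 UMIs.

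UMIs were summed over the B cells of each library and expressed per 1000000 UMIs (CPM). Log2 ratios are Dnmt1iECKO over control for genes whose UMIs, summed over the B cells of both libraries, reached 100. Shares have Clopper-Pearson, levels Poisson and ratios conditional exact intervals. Doublets were scored with Scrublet in scanpy 1.11.5, and the highest scores were marked, at 0.4% per 1000 cells; the study's methods name another doublet caller. Leiden clustering (2000 variable genes, 20 components, 15 neighbours, resolution 0.5) left out immunoglobulin and mitochondrial genes. A cluster was named from at least 3 markers detected in 10% of its cells and at least 2-fold higher than elsewhere, thresholds set after the clusters were seen. A marker of the named cell type also had to be among the 10 leading genes. A B cell name was dropped where a leading gene was on the list of another cell type. Scripts ran in Python 3.11.15 with scipy 1.17.1 and were tested on simulated data.

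Named genes were those of 38 lists and the 10 highest and 10 lowest ratios among genes in at least 5% of the B cells of the higher library; the same rule was used without Cdh5 or Cldn5 UMIs and in the follicular-like groups. Members and lists were chosen with earlier results of these data known. The set without other cell types' markers and the follicular-like set were chosen after seeing the data. Promoters came from RefSeq, build GRCm38.p6. Some genes of the lists are not reported here.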

Additional observations from a re-analysis of the deposited data

How the results depend on the processing

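With 1 library per condition these values carry no test, and the cause of each change was not tested. No paired analysis was possible because each condition has 1 library. Values are log2 ratios, or medians of them over a gene list, unless given as gene counts. The log2 ratio of the share of B cells was 1.55 as reported, 1.87 without *Cdh5* or *Cldn5* UMIs and -0.12 of cells with *Ptprc*. Minimum gene numbers of 200 and 1000, a limit of 5% mitochondrial UMIs and a total without immunoglobulin genes kept the list medians and gene counts run under them within counting error or 1.5 times. Leiden resolutions of 0.3 and 1 were run for the follicular-like share alone, whose log2 ratio was -0.27 and 0.063 against -0.18 as reported. The endothelial median rests on *Pecam1* alone in each set without *Cdh5* or *Cldn5* UMIs or without markers of other cell types, since the other 9 markers were below the minimum there.

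Without *Cdh5* or *Cldn5* UMIs, 101 genes were at least 2-fold lower. The medians were 0.014 for identity, 0.027 for receptor signaling, 0.097 for MHC class I, -0.047 for MHC class II, 0.031 for immediate early genes, -0.020 for trafficking, 0.10 for costimulation, 0.35 for endothelial markers, -0.045 for follicular genes, -0.45 for heat shock, 0.34 for interferon gamma, -0.0078 for survival receptors and 0.29 for type I interferon. Without markers of other cell types, 94 genes were at least 2-fold lower and 65 genes were at least 2-fold higher. The medians were 0.048 for identity, 0.045 for receptor signaling, 0.20 for MHC class I, 0.12 for MHC class II, 0.10 for immediate early genes, -0.00093 for trafficking, 0.32 for endothelial markers, -0.49 for heat shock, 0.38 for interferon gamma and 0.33 for type I interferon.

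In the follicular-like groups without those UMIs, 14 genes were at least 2-fold lower and 11 genes were at least 2-fold higher. *Ly6c2* was at -0.12, *Scgb1a1* was at -0.26 and *Tbx21* was at -1.10. The medians were -0.033 for identity, -0.050 for inhibitory receptors, 0.0029 for receptor signaling, 0.10 for MHC class I, 0.050 for MHC class II, -0.17 for immediate early genes, 0.20 for cell cycle, -0.068 for trafficking, 0.053 for costimulation, 0.37 for endothelial markers, -0.024 for follicular genes, -0.12 for heat shock, 0.12 for interferon gamma, -0.12 for plasma cell genes, -0.065 for survival receptors, -0.046 for transcription factors and -0.11 for type I interferon.

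With each cell thinned to 2000 UMIs, 62 genes were at least 2-fold lower and 14 genes were at least 2-fold higher. *Tbx21* was at -0.15. The medians were 0.12 for identity, 0.081 for receptor signaling, 0.13 for MHC class I, 0.13 for MHC class II, -0.016 for immediate early genes, -0.35 for cell cycle, -0.029 for follicular genes, -0.41 for heat shock, 0.15 for interferon gamma, -0.032 for plasma cell genes, -0.043 for survival receptors and -0.13 for type I interferon. With the rule markers counted after thinning, 567 genes were at least 2-fold lower. The medians were 0.25 for identity, 0.25 for receptor signaling, 0.33 for MHC class II, 0.051 for cell cycle, 0.078 for trafficking, -0.59 for heat shock, -0.20 for interferon gamma and -1.02 for plasma cell genes. As a mean of single-cell CPM, the medians were 0.092 for identity, 0.044 for receptor signaling, 0.082 for MHC class I, 0.13 for MHC class II, -0.13 for cell cycle, 0.043 for trafficking, 0.085 for costimulation, -0.54 for heat shock, -0.087 for interferon gamma and -0.098 for plasma cell genes.

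With at least 2 markers, 201 genes were at least 2-fold higher. The medians were 0.44 for MHC class II, -0.076 for immediate early genes, -0.40 for cell cycle and -0.013 for plasma cell genes. With at least 4 markers, the median was -0.42 for cell cycle. With doublets removed, the medians were 0.37 for MHC class II and -1.18 for cell cycle. With no requirement on *Cd3e*, *Cd3g* and *C1qa*, the medians were 0.35 for identity, 0.31 for MHC class II, -0.092 for immediate early genes and -0.17 for cell cycle. With size factors, which moved the median of all genes by 0.10, the medians were 0.57 for identity, 0.080 for MHC class I and 0.50 for MHC class II. With at least 20 UMIs, 1697 genes were at least 2-fold lower and 609 genes were at least 2-fold higher.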
